A study of Mus musculus with 23 samples.

Results

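The interleukin-1 and inflammasome genes are 9 genes, namely the cytokines Il1a, Il1b and Il18, the receptor antagonist Il1rn, the sensor Nlrp3, the adaptor Pycard, the caspases Casp1 and Casp4, and the pore protein Gsdmd. Open chromatin at these genes was measured by ATAC-seq, in which the transposase Tn5 cuts accessible DNA, in sorted microglia of the striatum, a deep forebrain region, taken from males 8 to 10 weeks old. A region, a window of fixed width around a summit, belonged to a gene when the summit of the peak that defined it lay in the gene body or within 20 kb of it, and a region near several of the 9 genes went to the nearest. Of the 49123 regions with a peak in at least 3 of 23 libraries, 57 were placed this way: 12 at Il1a, 6 at Il1b, 7 at Il18, 4 at Il1rn, 11 at Nlrp3, 4 at Pycard, 2 at Casp1, 2 at Casp4 and 9 at Gsdmd. Nearness does not show that a region controls the gene.

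The libraries fell into 4 groups. MIA_LPS (n = 5) and CON_LPS (n = 7) came from male offspring that had received lipopolysaccharide (LPS, a part of the outer membrane of bacteria that is sensed through TLR4) into the abdomen, at 4500 EU (endotoxin units) per g, 18 hours before the cells were taken. MIA_SAL (n = 6) and CON_SAL (n = 5) came from male offspring given saline and taken at the same time. MIA offspring were born to dams with maternal immune activation, by an agent not given in the sources used here, and CON offspring were their controls. All 4 groups shared the removal of the meninges, the digestion with papain at 37 °C and the gate for live, CD11b+, CD45-low and P2RY12+ cells, so cells that had lost P2RY12 or gained CD45 were not collected. The labels do not say that each library came from its own animal, so a p-value covers only the spread among these libraries, which may be technical. An identity number in the labels, of unstated meaning, stands for more than 1 library within groups (22 in CON_LPS, 13 in CON_SAL, 3 and 9 in MIA_SAL). It also recurs across groups.

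Interleukin-1 alpha and beta are cytokines that act on the same receptor and start inflammation, and the product of Il1rn, the interleukin-1 receptor antagonist, occupies that receptor without signalling. Interleukin-1 beta and interleukin-18 are made as inactive precursors that caspase-1 cuts after an inflammasome, often built from NLRP3 and the adaptor ASC (the product of Pycard), has formed. Caspase-11, the product of mouse Casp4, senses LPS inside the cell, and both caspases cut gasdermin D, the product of Gsdmd, into a form that opens pores in the cell membrane. In the brain, microglia are known as a main source of interleukin-1 after an inflammatory stimulus.

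The sequences before 4 transcript starts are shown because they divide the cytokine and antagonist genes by whether their starts were open: the start of Il1a was open in all 23 libraries, that of Il1b in hardly any, and of the starts of Il1rn the upstream one in none and an internal one mainly after LPS. Each line holds the 250 bases before a start, 5′ to 3′ on the strand of the gene, from RefSeq with the build GRCm38.p6. The first line for Il1rn is the upstream start and the second the internal one. Capitals mark matches to TATAAA, a box found before many starts, or to TGANTCA, the AP-1 motif, the 2 of 7 searched motifs with a match in these windows.
Il1a (chr2:129309973-129310222, minus strand): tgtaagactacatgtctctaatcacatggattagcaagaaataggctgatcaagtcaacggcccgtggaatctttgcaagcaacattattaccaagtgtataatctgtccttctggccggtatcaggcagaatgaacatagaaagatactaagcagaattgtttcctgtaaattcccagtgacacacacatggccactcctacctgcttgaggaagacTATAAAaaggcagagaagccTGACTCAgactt
Il1b (chr2:129371140-129371389, minus strand): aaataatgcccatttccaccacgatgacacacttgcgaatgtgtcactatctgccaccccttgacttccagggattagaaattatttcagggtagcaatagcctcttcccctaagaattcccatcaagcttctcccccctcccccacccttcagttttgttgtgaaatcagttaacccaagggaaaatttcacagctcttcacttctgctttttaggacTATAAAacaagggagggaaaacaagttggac
Il1rn (chr2:24336610-24336859, plus strand): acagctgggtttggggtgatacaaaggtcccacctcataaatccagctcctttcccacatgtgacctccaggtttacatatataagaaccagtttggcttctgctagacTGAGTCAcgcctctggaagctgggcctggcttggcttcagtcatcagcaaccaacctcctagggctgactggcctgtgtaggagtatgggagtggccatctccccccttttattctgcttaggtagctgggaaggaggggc
Il1rn (chr2:24345041-24345290, plus strand): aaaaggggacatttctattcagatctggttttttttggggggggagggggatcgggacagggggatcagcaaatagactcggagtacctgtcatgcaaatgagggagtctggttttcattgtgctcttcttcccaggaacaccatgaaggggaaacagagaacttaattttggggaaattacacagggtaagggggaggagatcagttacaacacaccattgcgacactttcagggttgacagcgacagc
Searched on both strands, Il1a held TATAAA 32 to 27 bases before its start and TGACTCA 12 to 6 bases before it, and Il1b held TATAAA 31 to 26 bases before its start. The upstream promoter of Il1rn held TGAGTCA, and the window before its internal start held none of the 7 motifs. TATAAA stood in 12.4% and TGANTCA in 6.75% of all 32851 promoter windows of the same length, so these matches describe the letters and no factor. The other motifs searched were 2 forms of the NF-kB motif and the C/EBP, PU.1 and IRF motifs.

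Values below are percentiles of a peak within its own list. Only the best 33949 peaks of a list, by the authors' −log10 p, were used, the best peak has percentile 100, and a library with no such peak in a region has 0. A percentile compares a region with the other regions of that library and is no measure of absolute accessibility, and a region that opened in a share of the cells cannot be told apart from one that opened less in all of them. Presence was tested with an exact conditional test stratified by prenatal group, and percentiles with limma, each two-sided and with Benjamini-Hochberg (BH) adjustment over all regions tested. A difference in presence, in points, is the mean of the differences within MIA and within CON offspring, weighted by their numbers of libraries. It can therefore depart from the difference of the pooled counts. A region was called at an adjusted p under 0.05. The heat map shows all 57 regions in all libraries.

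**Figure D1:**
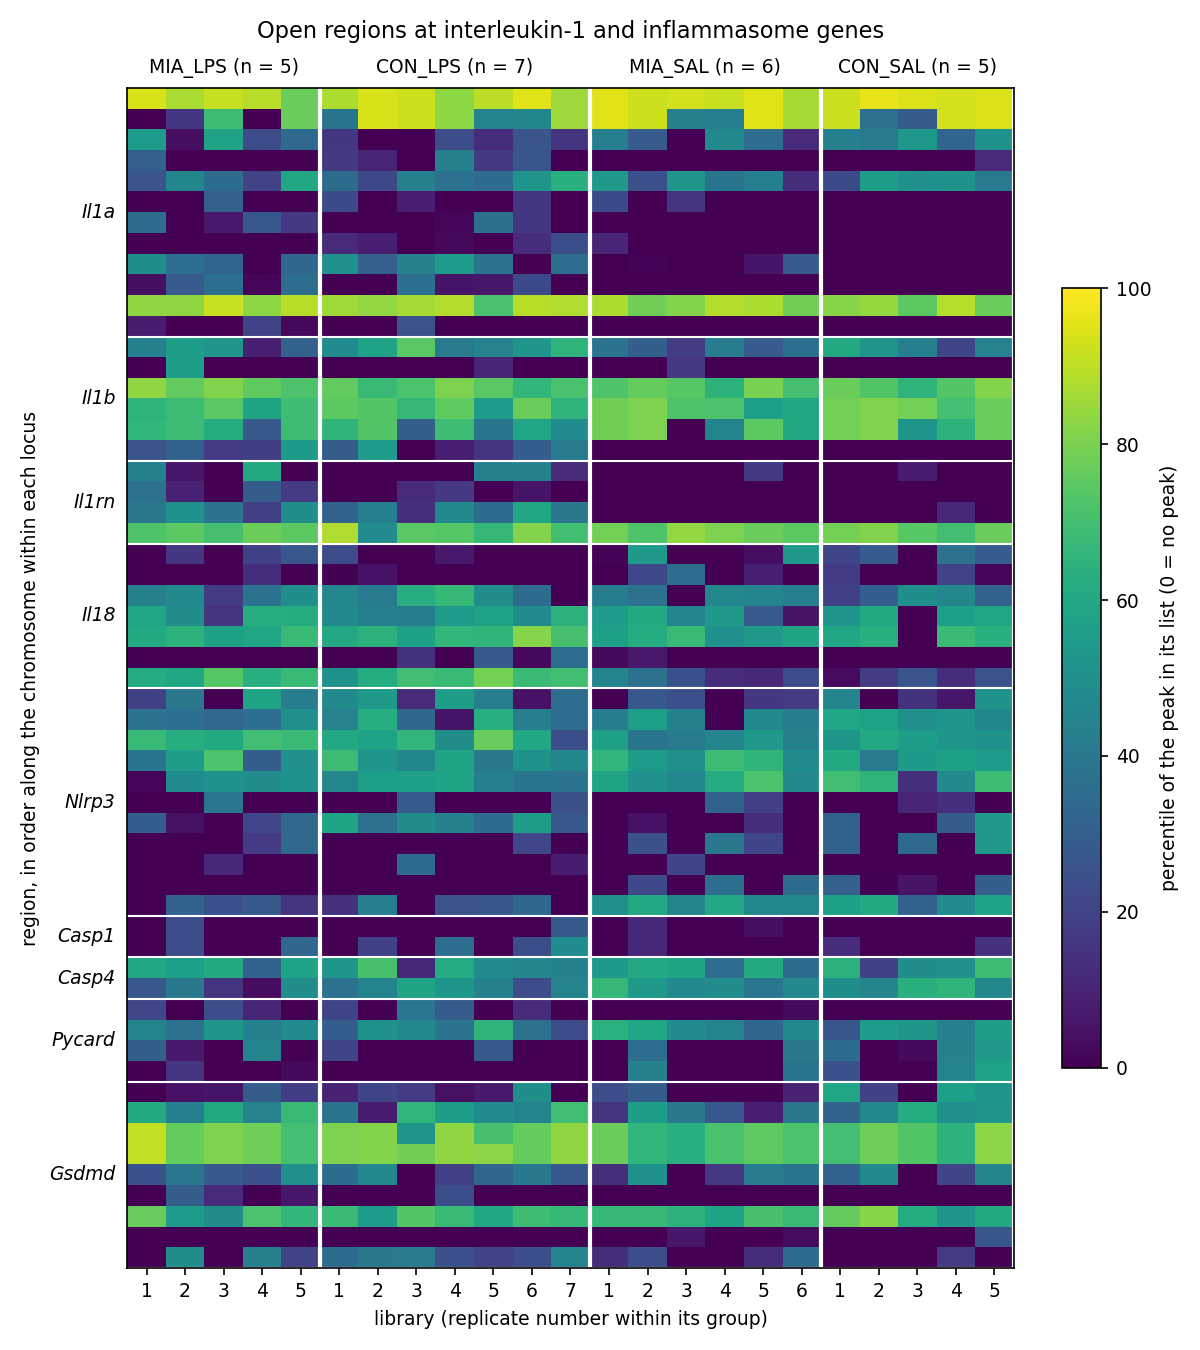
Percentile of the peak in each of the 57 regions (rows, grouped by gene and in chromosome order) in each of the 23 libraries (columns), MIA_LPS, CON_LPS, MIA_SAL and CON_SAL from left to right, with 0 for no peak. Rows that are bright in every library, such as the top one at Il1a, stand beside rows that are bright after LPS and dark after saline, such as the third row of Il1rn.

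Regions that opened after LPS lay at Il1rn, Il1a and Il1b, and 1 region past the end of Il18 rose in rank. Inside Nlrp3, 2 regions fell and 1 rose, and the caspase, adaptor and gasdermin loci held at most 2 calls each. In the presence test 6 of the 23 regions tested were open in more LPS than saline libraries and 1 in fewer. That was 26.1% and 4.35% of them, against 15.3% and 8.4% of all 17546 regions tested, and in either direction 30.4% against 23.7%. By percentile 11 of the 57 regions rose after LPS and 3 fell (19.3% and 5.26%), against 10.8% and 9.77% of all 49123 regions, and in either direction 24.6% against 20.6%. The median difference in percentile was 3.16 points over the 57 regions and −0.60 over all regions.

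**Figure D2:**
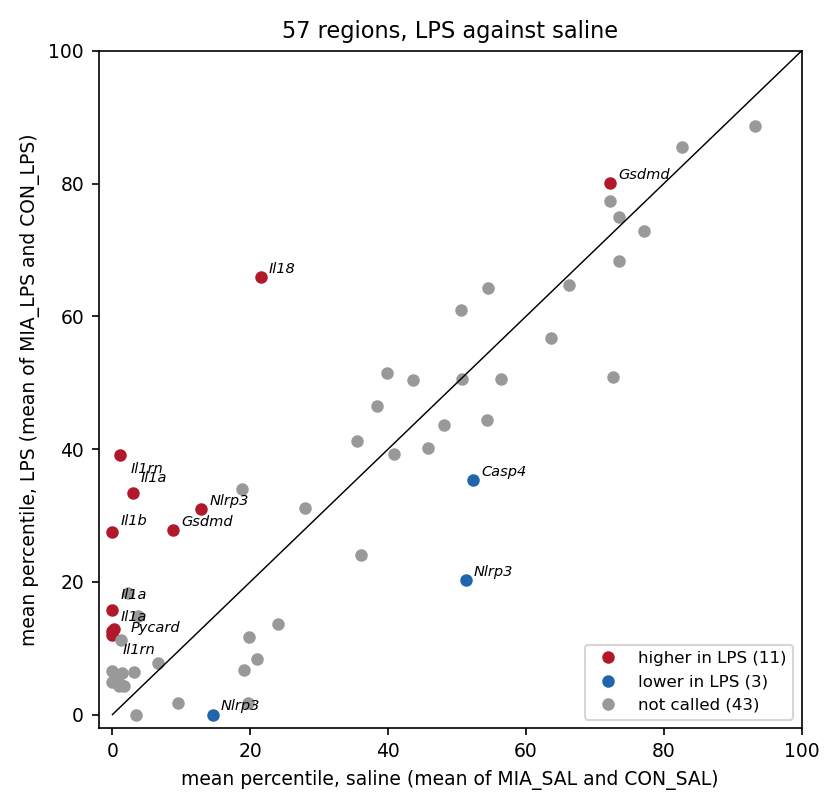
Mean percentile after LPS (vertical axis, mean of MIA_LPS and CON_LPS) against the mean after saline (horizontal axis, mean of MIA_SAL and CON_SAL) for the 57 regions, with the line of equal values. The 11 regions that rose after LPS are red, the 3 that fell are blue and the other 43 are grey, and the region of Il18 and that at the internal start of Il1rn lie farthest above the line.

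Il1rn, the antagonist, was open at an internal start in every LPS library. The region at its internal start (chr2:24344984-24345484, its centre 57 bp upstream of the start at position 24345291 and inside the gene) was open in 5 of 5 MIA_LPS and 7 of 7 CON_LPS libraries, against 0 of 6 MIA_SAL and 1 of 5 CON_SAL libraries. The MIA_LPS percentiles were 39.5, 51.1, 37.9, 19.0 and 49.7, and the 7 CON_LPS percentiles had a low of 13.7, a median of 40.1 and a high of 60.1. The MIA_SAL percentiles were all 0, and the single CON_SAL library with a peak had 11.4. Every LPS library was thus above every saline library, a lack of overlap found in 2 of the 57 regions (3.51%) and in 2.09% of all regions, 1.63% with LPS higher and 0.456% with LPS lower. The share of libraries with a peak, as the weighted mean over both prenatal groups, was 89.7 points higher after LPS (exact test, BH-adjusted p = 0.000558). The percentile was 38.0 ± 5.08 points higher (SE, limma, BH-adjusted p = 4.53e-06). It rose by 39.5 ± 7.31 points in MIA offspring (limma, BH-adjusted p = 0.000694) and by 36.6 ± 7.07 points in CON offspring (limma, BH-adjusted p = 0.00108).

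The saline libraries were not empty there. In the full deposited lists a peak of any rank with its summit within 500 bp of that start was present in 5 of 5 MIA_LPS, 7 of 7 CON_LPS, 3 of 6 MIA_SAL and 3 of 5 CON_SAL libraries. With all deposited peaks the presence difference was 44.8 points and the region could no longer reach the p that a test required. Ranked by the authors' fold instead of their −log10 p, the region had mean percentiles of 40.3 in MIA_LPS, 45.2 in CON_LPS, 5.36 in MIA_SAL and 7.78 in CON_SAL libraries. By that order the groups overlapped, since CON_SAL library 4 stood at 36.9, above 2 MIA_LPS libraries at 33.3 and 18.0 and 2 CON_LPS libraries at 35.4 and 22.8. The upstream start of Il1rn, at position 24336860, had no summit within 500 bp in any deposited list.

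A weaker region lay between both starts of Il1rn (chr2:24341348-24341848, inside the gene). It was open in 4 of 5 MIA_LPS and 3 of 7 CON_LPS libraries and in none of the 11 saline libraries. The MIA_LPS percentiles were 37.5, 9.97, 0, 29.6 and 17.8, and the CON_LPS libraries had a median of 0 and a high of 16.6. Its presence was 60.8 points higher after LPS (exact test, BH-adjusted p = 0.0252), and its percentile rose by 11.97 ± 3.36 points (SE, limma, BH-adjusted p = 0.012). A region 1323 bp before the gene, open in 4 of 5 MIA_LPS, 3 of 7 CON_LPS, 1 of 6 MIA_SAL and 1 of 5 CON_SAL libraries with at most 60.9 as its percentile, had no call. The highest region near Il1rn (chr2:24367295-24367795, 16054 bp past the gene) lay 130 bp from the start of Psd4 and averaged 74.0 ± 2.66 in MIA_LPS, 71.8 ± 12.6 in CON_LPS, 78.0 ± 3.99 in MIA_SAL and 76.2 ± 4.66 in CON_SAL libraries (SD), with no call.

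Il1b, which encodes interleukin-1 beta, carried its strongest open chromatin away from its start. The start itself, at position 129371139, had a summit within 500 bp in 0 of 5 MIA_LPS, 0 of 7 CON_LPS, 1 of 6 MIA_SAL and 0 of 5 CON_SAL lists of equal length, and in 3 libraries of the full deposited lists. A region 2451 bp upstream (chr2:129373340-129373840) was open in all 23 libraries, with mean percentiles of 77.6 ± 4.47 in MIA_LPS, 72.4 ± 4.88 in CON_LPS, 73.0 ± 5.15 in MIA_SAL and 73.9 ± 5.97 in CON_SAL libraries (SD). Its difference between LPS and saline was 1.56 ± 2.25 points (SE, limma, BH-adjusted p = 0.674), so the groups overlapped around one high value.

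The region of Il1b that changed lay 16621 bp upstream (chr2:129387510-129388010). The MIA_LPS percentiles were 26.6, 30.9, 17.8, 18.4 and 54.6, the CON_LPS percentiles had a low of 0, a median of 29.7 and a high of 54.7, and all 11 saline libraries had 0. One CON_LPS library without a peak made the groups touch at 0. The percentile was 27.6 ± 5.42 points higher after LPS (SE, limma, BH-adjusted p = 0.00054), by 29.7 ± 7.79 points in MIA and 25.5 ± 7.53 points in CON offspring (limma, BH-adjusted p = 0.0142 and 0.0304). The call in MIA offspring was lost without MIA_LPS library 5 (23.4 points, BH-adjusted p = 0.0543), and that in CON offspring without CON_LPS library 2 or 7 or without any 1 of the 5 CON_SAL libraries, with the replicate block (BH-adjusted p = 0.0837) and when each peak needed a −log10 q of 5 (BH-adjusted p = 0.312). By the authors' fold its mean percentiles were 38.9 in MIA_LPS, 31.8 in CON_LPS and 0 in both saline groups. In the full deposited lists 1 saline library had a peak there. Of the other 4 regions of Il1b, 2 upstream at 9.3 and 9.8 kb and 2 at 10.1 and 10.7 kb past the start, none had a call.

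Il1a, which encodes interleukin-1 alpha, was the locus with the most regions, and its start was open in every library. The start region (chr2:129309773-129310273) averaged 37.5 ± 15.6 in MIA_LPS, 41.1 ± 13.4 in CON_LPS, 37.5 ± 16.2 in MIA_SAL and 44.3 ± 13.3 in CON_SAL libraries (SD), with no call. Farther upstream, a region at 10.2 kb (chr2:129319919-129320419) was also open in all libraries, with mean percentiles of 86.1 in MIA_LPS, 84.9 in CON_LPS, 83.7 in MIA_SAL and 81.5 in CON_SAL libraries. The highest region of the locus lay 105 bp from the start of the neighbour Ckap2l (chr2:129297067-129297567), at 87.7 in MIA_LPS, 89.7 in CON_LPS, 92.4 in MIA_SAL and 94.1 in CON_SAL libraries.

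Between the start of Il1a and the 10.2 kb region, 3 regions were called open more often after LPS than after saline. Regions 764 and 4143 bp upstream had no call, with a peak in 4 and 5 of 12 LPS and in 2 and 1 of 11 saline libraries. The first of the 3 called regions, 5092 bp upstream (chr2:129314814-129315314), had MIA_LPS percentiles of 49.7, 36.5, 32.7, 0 and 33.3 and CON_LPS percentiles with a low of 0, a median of 38.4 and a high of 55.4. Saline libraries had a peak in 3 of 6 MIA_SAL, with a high of 28.6, and in 0 of 5 CON_SAL libraries. One library of each LPS group lacked the peak, and every LPS library that had it was above every saline library. The percentile was 30.5 ± 6.24 points higher after LPS (SE, limma, BH-adjusted p = 0.000828), and the presence 58.8 points higher (exact test, BH-adjusted p = 0.048). The presence call was lost in 18 of the 23 fits that left out 1 library, and the percentile call in none of them.

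The other 2 called regions were lower in rank. The region 6085 bp upstream of Il1a (chr2:129315807-129316307) had MIA_LPS percentiles of 3.95, 28.8, 36.4, 1.85 and 36.1, CON_LPS percentiles with a median of 5.72 and a high of 36.4 in 4 of 7 libraries with a peak, and 0 in all 11 saline libraries. In the full deposited lists it had a peak in 5 of 5 MIA_LPS, 7 of 7 CON_LPS, 2 of 6 MIA_SAL and 1 of 5 CON_SAL libraries. In the shortened lists its presence was 77.9 points higher after LPS (exact test, BH-adjusted p = 0.0038) and its percentile 15.8 ± 4.54 points higher (SE, limma, BH-adjusted p = 0.0142). The region 1776 bp upstream (chr2:129311498-129311998) was open in 4 of 5 MIA_LPS, 3 of 7 CON_LPS and no saline library, with a high of 37.0. Its presence was 60.8 points higher (exact test, BH-adjusted p = 0.0252) and its percentile 12.5 ± 4.195 points higher (SE, limma, BH-adjusted p = 0.0349), a call lost without MIA_LPS library 1 or 4, CON_LPS library 6 or CON_SAL library 4 or 5 (BH-adjusted p up to 0.0754). None of these 3 percentile calls held when peaks were ranked by the authors' fold, under which the differences were 12.2, 2.61 and 4.51 points (limma, BH-adjusted p = 0.0832, 0.418 and 0.255), in the order given here.

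One region inside Il1a went the other way in CON offspring (chr2:129305947-129306447). The CON_LPS percentiles had a low of 0, a median of 14.9 and a high of 26.3, against 43.6, 40.9, 53.3, 32.6 and 50.8 in CON_SAL libraries. Ranked by the authors' fold these groups overlapped, with a CON_LPS high of 16.5 and a CON_SAL low of 0. The MIA_LPS percentiles were 55.0, 4.14, 57.5, 22.7 and 34.1 and the MIA_SAL percentiles ran between 0 and 47.6. The percentile fell by 30.7 ± 9.60 points in CON offspring (SE, limma, BH-adjusted p = 0.041) and was 6.84 ± 9.93 points higher in MIA offspring, which was no call. The difference between these responses was 37.6 ± 13.8 points with a BH-adjusted p of 0.971 (limma). The call in CON offspring was lost in 9 of the 23 fits that left out 1 library. It was also lost in 7 of 11 alternatives, among them all deposited peaks and lists ordered by fold. The map of distances shows where these regions lie along the cytokine and antagonist loci.

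**Figure D3:**
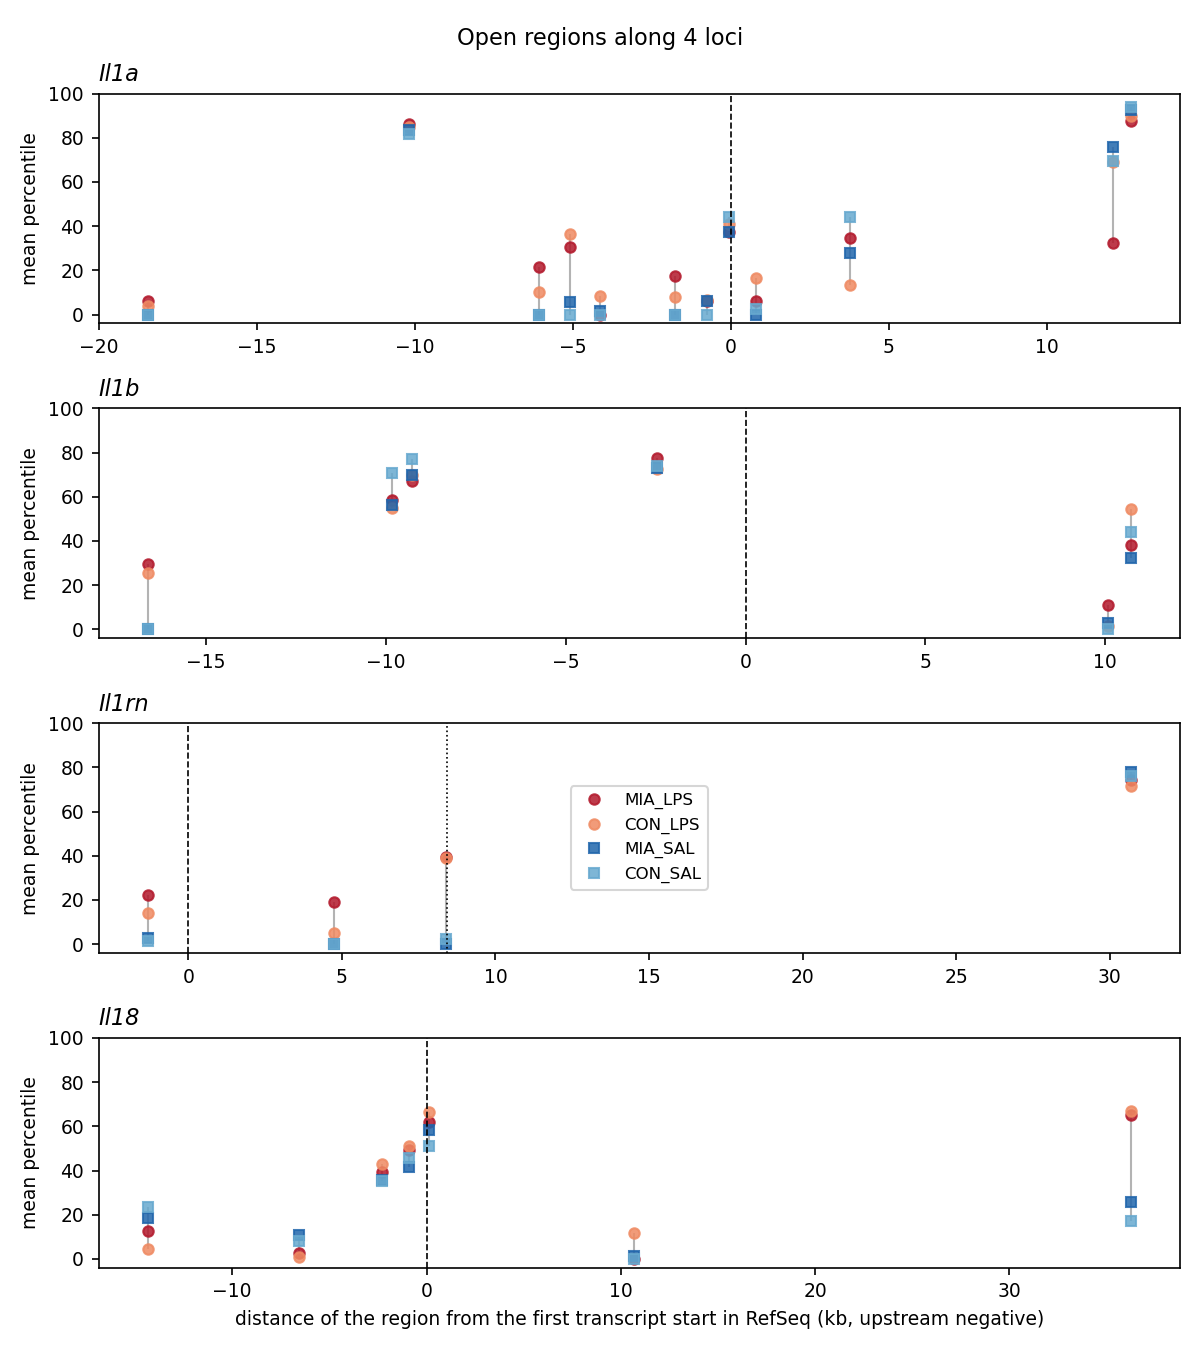
Mean percentile of each region (vertical axis) at Il1a, Il1b, Il1rn and Il18 by its distance from the first transcript start in kb (horizontal axis, upstream negative), with circles for MIA_LPS and CON_LPS and squares for MIA_SAL and CON_SAL, and a grey line for the span of the 4 means. The dashed line is the first start and the dotted line the internal start of Il1rn, and the long grey lines with circles above squares mark the region at that start, those upstream of Il1a and Il1b, and the one past the end of Il18.

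Il18, the other inflammasome-cut cytokine, was open at its start with or without LPS and changed elsewhere. The start region (chr9:50554592-50555092) was open in 22 libraries and averaged 61.9 ± 4.07 in MIA_LPS, 66.6 ± 8.03 in CON_LPS, 58.2 ± 6.11 in MIA_SAL and 50.9 ± 28.6 in CON_SAL libraries (SD), where 1 library without a peak widened the spread. It had no call. It also lies within Bco2, so reads there cannot be given to one of these genes.

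The region that changed lay 9098 bp past the end of Il18 (chr9:50590689-50591189), 12910 bp from the start of Sdhd, and was open in all 23 libraries. The MIA_LPS percentiles were 61.5, 59.7, 73.6, 62.7 and 67.6 and the CON_LPS percentiles had a low of 50.9, a median of 68.3 and a high of 79.0. The MIA_SAL percentiles had a low of 11.7, a median of 24.2 and a high of 45.0, and the CON_SAL percentiles were 3.11, 17.4, 26.5, 12.5 and 26.0. All 12 LPS libraries were above all 11 saline libraries. The percentile was 44.3 ± 4.87 points higher after LPS (SE, limma, BH-adjusted p = 2.48e-07), the largest difference among the 57 regions, and presence could not show it, since every library had a peak. The rise was 39.1 ± 7.00 points in MIA offspring (limma, BH-adjusted p = 0.000483) and 49.6 ± 6.77 points in CON offspring (limma, BH-adjusted p = 1.91e-05). By the authors' fold the region had mean percentiles of 69.0 in MIA_LPS, 70.6 in CON_LPS, 36.2 in MIA_SAL and 28.6 in CON_SAL libraries. In the authors' deposited lists the median −log10 p of its peak was 29.1 in MIA_LPS, 23.97 in CON_LPS, 12.2 in MIA_SAL and 8.15 in CON_SAL libraries. The other 5 regions of Il18 had no call.

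**Figure D4:**
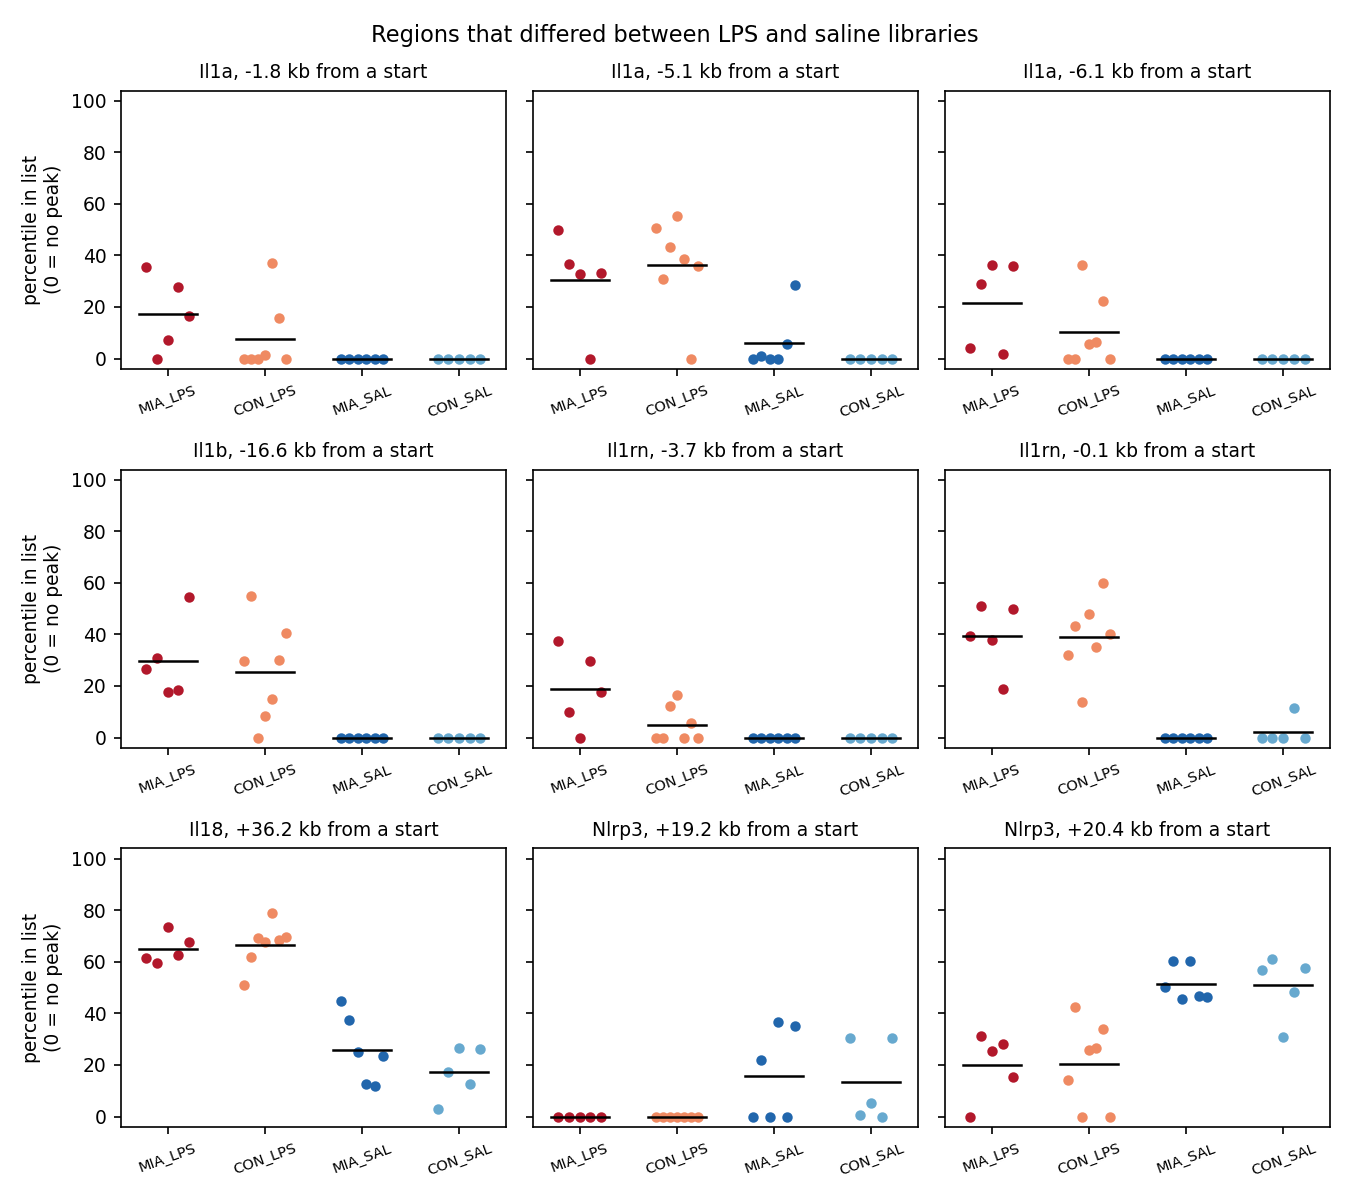
Percentile in each library (points) and the group mean (line) in MIA_LPS, CON_LPS, MIA_SAL and CON_SAL, for the 9 regions called in the presence test of LPS against saline or called by percentile over all offspring and in each prenatal group alone. Panel titles give the gene and the distance from its nearest own start (minus, upstream). The 7 regions of Il1a, Il1b, Il1rn and Il18 are higher after LPS and both regions of Nlrp3 lower.

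Nlrp3, the sensor, was open at both of its starts in every library and lost rank in its 3′ part. The regions at the starts (chr11:59541288-59541788 and chr11:59542442-59542942) had mean percentiles of 49.5 and 40.5 in MIA_LPS, 51.8 and 48.3 in CON_LPS, 59.1 and 55.9 in MIA_SAL and 53.7 and 52.8 in CON_SAL libraries, with no call. The highest region of the locus lay 3059 bp upstream (chr11:59538260-59538760) and averaged 65.5 ± 3.65 in MIA_LPS, 56.3 ± 16.6 in CON_LPS, 46.5 ± 7.22 in MIA_SAL and 54.5 ± 3.59 in CON_SAL libraries (SD). Its difference of 10.4 ± 4.53 points after LPS missed the threshold (SE, limma, BH-adjusted p = 0.11).

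Inside Nlrp3, the region 20367 bp past a start (chr11:59562803-59563303) had MIA_LPS percentiles of 0, 31.3, 25.4, 28.1 and 15.3 and CON_LPS percentiles with a low of 0, a median of 25.8 and a high of 42.6. The MIA_SAL percentiles had a low of 45.6, a median of 48.3 and a high of 60.4, and the CON_SAL percentiles were 56.8, 61.1, 30.9, 48.3 and 57.7. Only 1 CON_SAL library came down into the range of the LPS libraries. The percentile fell by 31.0 ± 6.02 points after LPS (SE, limma, BH-adjusted p = 0.000481), by 31.5 ± 8.66 points in MIA and 30.5 ± 8.37 points in CON offspring (limma, BH-adjusted p = 0.0193 for each). The call in MIA offspring was lost without MIA_LPS library 1 (BH-adjusted p = 0.0711), and that in CON offspring without CON_SAL library 2 or 5 (BH-adjusted p up to 0.0544). When each peak needed a −log10 q of 5, the call over all offspring was lost. Of 11 alternatives, the call in MIA offspring was lost in 3 and that in CON offspring in 4, all deposited peaks among them for each.

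A weaker region 19216 bp past that start (chr11:59561652-59562152) was open in 0 of 5 MIA_LPS and 0 of 7 CON_LPS libraries, against 3 of 6 MIA_SAL and 4 of 5 CON_SAL libraries, with a high of 36.6. Its presence fell by 65.5 points (exact test, BH-adjusted p = 0.0102) and its percentile by 14.5 ± 4.69 points (SE, limma, BH-adjusted p = 0.0283), a percentile call lost without CON_SAL library 1 or 5 (BH-adjusted p up to 0.0613). In the full deposited lists it had a peak in 2 of 5 MIA_LPS, 1 of 7 CON_LPS, 3 of 6 MIA_SAL and 5 of 5 CON_SAL libraries, and with all of those peaks the presence call was lost. A region 11718 bp past a start (chr11:59554154-59554654) rose by 18.1 ± 6.40 points (SE, limma, BH-adjusted p = 0.0459), and that call was lost in 15 of the 23 fits that left out 1 library. The MIA_LPS percentiles there were 30.1, 4.47, 0, 21.4 and 34.5, the CON_LPS median 44.1, the MIA_SAL median 0 and the CON_SAL percentiles 31.1, 0, 0, 29.6 and 53.6, so both prenatal groups overlapped between treatments. Of the window before the upstream start, GGGAACCCCC (NF-kB) was the only match to a searched motif, and the share of all promoter windows with either NF-kB pattern was 9.13%.

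At the loci of the adaptor, the caspases and the pore protein no region was called in the presence test. The regions called there by percentile each lost the call under some alternative processing. Pycard was open at its start in all 23 libraries (chr7:127993471-127993971), with mean percentiles of 45.6 ± 5.64 in MIA_LPS, 41.6 ± 13.9 in CON_LPS, 49.4 ± 11.0 in MIA_SAL and 46.9 ± 12.2 in CON_SAL libraries (SD) and no call. A region 1830 bp inside Pycard (chr7:127991787-127992287) was open in 3 of 5 MIA_LPS, 4 of 7 CON_LPS, 1 of 6 MIA_SAL and 0 of 5 CON_SAL libraries. Its percentile rose by 12.7 ± 4.21 points (SE, limma, BH-adjusted p = 0.0337), with a high of 39.2 after LPS and 1.96 after saline. The call was lost without MIA_LPS library 1 or 3 or CON_LPS library 4 (BH-adjusted p up to 0.0675).

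Casp1, which encodes the caspase that cuts both cytokine precursors, had 2 regions, neither of them called. Its start region (chr9:5298404-5298904) was open in 2 of 5 MIA_LPS, 4 of 7 CON_LPS, 1 of 6 MIA_SAL and 2 of 5 CON_SAL libraries, with a high of 48.7. The difference of 11.2 ± 5.52 points after LPS missed the threshold (SE, limma, BH-adjusted p = 0.162). Casp4 beside it was open at its start in every library (chr9:5308579-5309079), at 53.4 ± 12.1 in MIA_LPS, 47.7 ± 18.7 in CON_LPS, 50.9 ± 12.2 in MIA_SAL and 50.4 ± 19.2 in CON_SAL libraries (SD). The difference there was −0.13 ± 6.58 points (SE, limma, BH-adjusted p = 0.993), with a 95% interval between −13.7 and 13.4 points.

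The window before the start of Casp4 is printed because, of the starts searched, those of Casp4 alone held both NF-kB patterns, beside a region with no call. Capitals mark the matches to both NF-kB patterns, of which the first run of capitals holds 3 that overlap each other.
Casp4 (chr9:5308599-5308848, plus strand): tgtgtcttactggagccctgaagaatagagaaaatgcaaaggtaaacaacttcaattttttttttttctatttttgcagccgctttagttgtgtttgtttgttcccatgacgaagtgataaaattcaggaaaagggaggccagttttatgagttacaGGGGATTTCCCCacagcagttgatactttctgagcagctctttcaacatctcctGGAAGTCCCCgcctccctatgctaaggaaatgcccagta
The patterns stood in 4.94% and 4.93% of all promoter windows. The second region near Casp4 (chr9:5343982-5344482) lay 7441 bp past the gene and 1244 bp from the start of Casp12. It averaged 26.9 ± 18.4 in MIA_LPS, 43.7 ± 11.3 in CON_LPS, 50.4 ± 9.18 in MIA_SAL and 54.2 ± 9.57 in CON_SAL libraries (SD). Its percentile fell by 17.01 ± 5.64 points after LPS (SE, limma, BH-adjusted p = 0.0328), and the call was lost in 6 of the 23 fits that left out 1 library.

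Gsdmd had 9 regions, 4 of them open in every library. The highest (chr15:75857353-75857853, 4541 bp from the gene) had MIA_LPS percentiles of 90.8, 76.4, 80.5, 77.8 and 70.3, a CON_LPS median of 81.4, a MIA_SAL median of 71.4 and CON_SAL percentiles of 70.3, 77.9, 72.9, 64.8 and 82.5. It rose by 7.83 ± 2.36 points after LPS (SE, limma, BH-adjusted p = 0.0193), a small shift within overlapping groups. The call was lost with lists ordered by fold (8.84 points, BH-adjusted p = 0.154) and when each peak needed a −log10 q of 5 (9.90 points, BH-adjusted p = 0.0795). The adjacent region (chr15:75856783-75857283) had the same percentiles except in CON_LPS libraries 3 and 5, and no call (5.10 ± 3.32 points, SE, limma, BH-adjusted p = 0.295). A region 19550 bp from Gsdmd, inside Mroh6 (chr15:75886708-75887208), was open in 3 of 5 MIA_LPS, 7 of 7 CON_LPS, 4 of 6 MIA_SAL and 1 of 5 CON_SAL libraries. It rose by 19.0 ± 6.25 points (SE, limma, BH-adjusted p = 0.0317), a call lost in 7 of the 23 fits that left out 1 library. No start of Gsdmd was used here.

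The limit of 20 kb had members close to it on both sides. Inside it lay the regions of Pycard at 18387 and 19452 bp and of Gsdmd at 18666 and 19550 bp. Just outside lay regions at 20139 and 20310 bp from Gsdmd, 20567 bp from Il1a and 21229 bp from Il18. The first of these had mean percentiles of 83.3 in MIA_LPS, 89.5 in CON_LPS, 82.5 in MIA_SAL and 84.3 in CON_SAL libraries, and the second 18.6, 13.2, 41.5 and 48.6 in the same groups.

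Counted by locus, the number of peaks within 20 kb of a gene in lists of equal length was called higher after LPS at Il1rn, Il1a and Il1b. The Il1rn locus held 3.80 ± 1.10 peaks in MIA_LPS, 3.00 ± 0.82 in CON_LPS, 1.17 ± 0.41 in MIA_SAL and 1.40 ± 0.55 in CON_SAL libraries (SD). That was a log2 difference of 0.93 ± 0.13 between LPS and saline (SE, limma on log2 of the number plus 1, BH-adjusted p = 5.27e-05). The Il1a locus held 8.40 ± 1.67 peaks in MIA_LPS, 8.14 ± 1.57 in CON_LPS, 5.33 ± 0.52 in MIA_SAL and 5.00 ± 1.22 in CON_SAL libraries (SD), a log2 difference of 0.58 ± 0.10 (SE, limma, BH-adjusted p = 0.000389). The Il1b locus held 5.00 ± 1.00 peaks in each LPS group, 4.00 ± 0.89 in MIA_SAL and 3.40 ± 0.55 in CON_SAL libraries (SD), a log2 difference of 0.35 ± 0.10 (SE, limma, BH-adjusted p = 0.0198). The call at Il1b was lost in 4 of its 8 alternatives, among them all deposited peaks, and none of the 3 calls held with lists of 16974 peaks.

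These 3 of 9 loci (33.3%) were called higher and none lower, against 5.96% and 4.64% of all 16099 gene loci and 10.6% in either direction. The other 6 loci had log2 differences between −0.08 at Pycard and 0.20 at Gsdmd (limma, BH-adjusted p = 0.26 or more). At Il18 the number was the same, 5.33 ± 0.78 after LPS and 5.36 ± 1.63 after saline (SD, n = 12 and 11), although 1 of its regions rose in rank. Here a peak near several of the 9 genes was counted once, at the nearest, while for the other genes all peaks within 20 kb were counted.

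**Figure D5:**
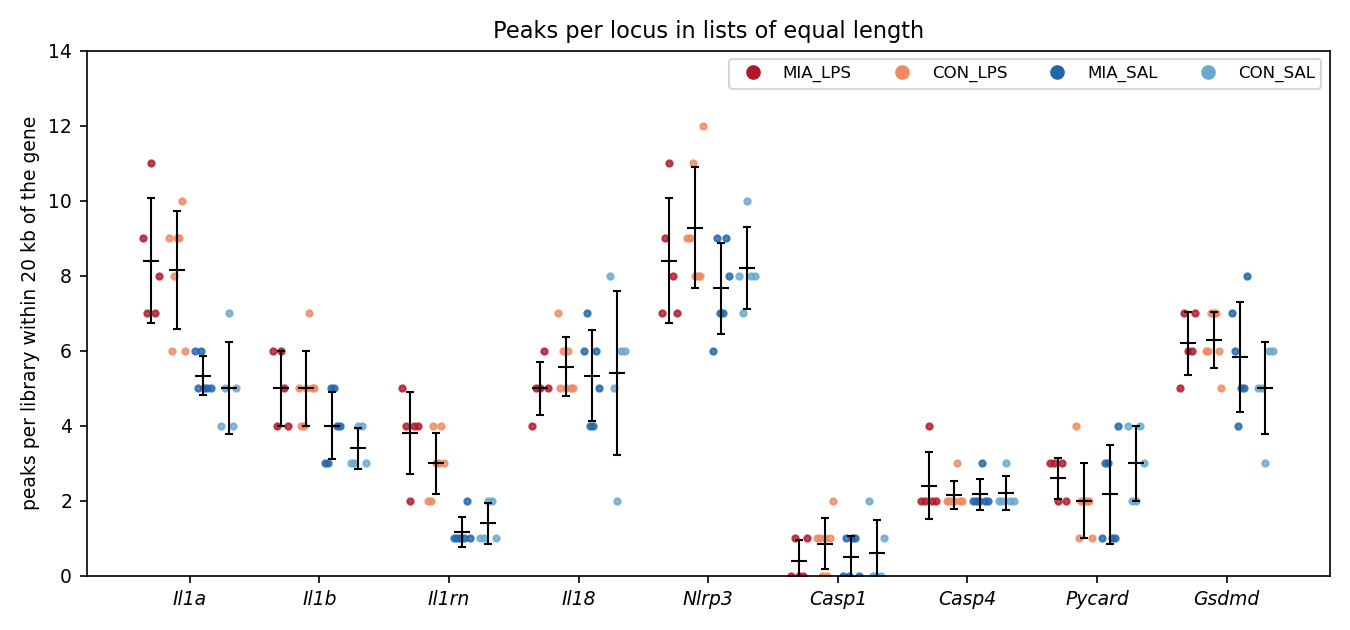
Number of peaks within 20 kb of each gene per library (points) with the mean and SD (black), in MIA_LPS, CON_LPS, MIA_SAL and CON_SAL from left to right at each gene, from lists of equal length. Means are higher in the LPS groups at Il1a, Il1b and Il1rn, where single libraries still overlap in range with saline libraries, and the other 6 genes have no call.

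No difference between MIA and CON libraries passed the threshold at these genes. Between MIA and CON libraries 0 of the 19 regions tested differed in presence (exact test over both treatments, BH over all regions, 0.0% of all regions), and none had an unadjusted p under 0.05, against 410 of all 15263 regions tested. By percentile, limma called 0 of 57 regions after saline (0.0% of all) and 0 of 57 after LPS (0.0224% of all), where 2 and 7 regions had an unadjusted p under 0.05. Of all 49123 regions, 2570 after saline and 2764 after LPS had such a p. The LPS response differed between MIA and CON offspring at 0 of 57 regions (0.0% of all), with 3 at an unadjusted p under 0.05, against 2215 of all 49123 regions. In MIA offspring taken alone, limma called 5 regions higher and 1 lower after LPS (10.5% of the 57, against 10.0% of all regions, 6.23% higher and 3.78% lower). In CON offspring alone it called 5 higher and 2 lower (12.3%, against 10.0% of all regions, 5.59% higher and 4.44% lower).

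A missed threshold does not show that MIA and CON offspring responded alike, and the errors set what could have been seen. At the internal start of Il1rn the response in MIA minus that in CON offspring was 2.86 ± 10.2 points, at the upstream region of Il1b 4.19 ± 10.8 points and at the region past Il18 −10.5 ± 9.73 points (SE, limma, BH-adjusted p = 0.992, 0.987 and 0.971). Among the regions called between LPS and saline, the largest difference between MIA_LPS and CON_LPS libraries was at Nlrp3, 11718 bp past a start, with 18.1 ± 15.3 in MIA_LPS and 43.9 ± 11.4 in CON_LPS libraries (SD, limma, BH-adjusted p = 0.681). The region between both starts of Il1rn stood at 19.0 ± 15.0 in MIA_LPS and 4.96 ± 6.94 in CON_LPS libraries (SD, limma, BH-adjusted p = 0.651). With the authors' −log10 q of at least 5 required of every peak, that region was called higher in MIA_LPS than in CON_LPS libraries, by 31.6 ± 6.19 points (SE, limma, BH-adjusted p = 0.0223), together with a region 18.5 kb upstream of Il1a, by 22.7 ± 5.04 points (SE, limma, BH-adjusted p = 0.0374). Lists cut at that q were not of equal length. The deposited lists held 33949 to 65641 peaks in MIA_LPS and 37284 to 47766 in CON_LPS libraries, and the part of list length in these calls was not tested.

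The wider pathway was described by 44 genes, of which 37 had 183 regions assigned to them and 61 regions entered the presence test. LPS libraries had a peak more often in 13 of the 61 and less often in 6, from 11 and 5 genes, against 15.3% higher and 8.4% lower of all regions tested. Among the ligands, a region inside Il33, which encodes the alarmin interleukin-33, was open in 0 of 5 MIA_LPS and 0 of 7 CON_LPS libraries against 6 of 6 MIA_SAL and 5 of 5 CON_SAL libraries (exact test, BH-adjusted p = 0.000175). All 11 saline libraries had that peak and no LPS library did.

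Among the receptors, a region inside Il1r1, the signalling receptor of interleukin-1, was open in 4 of 5 MIA_LPS, 7 of 7 CON_LPS, 2 of 6 MIA_SAL and 0 of 5 CON_SAL libraries (exact test, BH-adjusted p = 0.00787). A region inside Il1rap, its accessory protein, was open in 4 of 5 MIA_LPS, 4 of 7 CON_LPS and no saline library (BH-adjusted p = 0.0119), and one 23 bp from Il18rap, the accessory protein of the interleukin-18 receptor, in 3 of 5 MIA_LPS, 6 of 7 CON_LPS and no saline library (BH-adjusted p = 0.00471). A region 3405 bp from Il1r2, the decoy receptor, was open in no LPS library, 4 of 6 MIA_SAL and 3 of 5 CON_SAL libraries (BH-adjusted p = 0.0144). Another, 81 bp from Il1r2 and open in 5 of 5 MIA_LPS, 7 of 7 CON_LPS, 5 of 6 MIA_SAL and 3 of 5 CON_SAL libraries, went the other way, with a percentile 24.4 points higher after LPS (limma, BH-adjusted p = 0.0188).

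Among sensors and partners, a region 5261 bp from Mefv, which encodes the sensor pyrin, was open in 5 of 5 MIA_LPS, 7 of 7 CON_LPS, 1 of 6 MIA_SAL and 0 of 5 CON_SAL libraries, and one inside Nek7, a kinase that binds NLRP3, in 5 of 5 MIA_LPS, 6 of 7 CON_LPS and no saline library (exact test, BH-adjusted p = 0.000537 for each). A region inside Aim2, a sensor of DNA, was open in 5 of 5 MIA_LPS, 7 of 7 CON_LPS, 1 of 6 MIA_SAL and 2 of 5 CON_SAL libraries (BH-adjusted p = 0.00807). A region 7825 bp from Txnip, whose product binds NLRP3, went the other way, with 2 of 5 MIA_LPS, 1 of 7 CON_LPS, 5 of 6 MIA_SAL and 5 of 5 CON_SAL libraries (BH-adjusted p = 0.0216). A region 13031 bp from Pstpip1, whose product binds pyrin, was open in no LPS library, 4 of 6 MIA_SAL and 3 of 5 CON_SAL libraries (BH-adjusted p = 0.0144). Of the signalling genes, Irak2, a kinase downstream of the receptor, had a region inside it open in 4 of 5 MIA_LPS, 6 of 7 CON_LPS and no saline library (BH-adjusted p = 0.00191). For the executors of cell lysis in the list, Gsdme and Ninj1, 1 of 15 regions entered the presence test, with no call. By percentile 3 of the 15 rose and 1 fell, against 10.8% and 9.77% of all 49123 regions.

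Across the series, the deposited lists held between 33949 and 68312 peaks, of which 33 to 80 per library lay at the 9 genes. Among the microglia markers, Tmem119, Cx3cr1 and Siglech had a peak at an end of the gene in all 23 libraries. Csf1r had a peak in 21 and Itgam in 16. P2ry12, the gene of the gate, Sall1 and Aif1 had a peak in 13 each, and Gpr34 in none. Of the 8 neutrophil markers, S100a8 had a peak in 4 of 5 MIA_LPS and 6 of 7 CON_LPS libraries, Camp in 2 of 5 and 3 of 7, both in no saline library, and the other 6, Ly6g and Mpo among them, in no library. Their summed percentile ran between 0 and 90.4 in LPS libraries and was 0 in saline libraries. Between treatments it thus had the direction of the regions that rose at Il1rn, Il1a and Il1b. It was not compared with them library by library, and its part in those results was not tested. The 4 monocyte markers, Ccr2 among them, had no peak in any library. On other lists, Mbp (oligodendrocyte lineage) had a peak in 23 libraries, Cd4 (lymphocyte) and Slc1a3 (astrocyte) in 22 each, and Flt1 (endothelial) in 20. On those lists, in that order, 3 of 5, 5 of 6, 2 of 4 and 3 of 4 markers had none. Drd1 led the 6 neuron markers with 13 libraries. Of 5 border macrophage markers, Ms4a7 had a peak only in 3 of 5 MIA_LPS libraries, and 3 had none.

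The labels give the number of sorted cells. Among libraries of 20000 cells or more (6 LPS and 4 saline), the differences between LPS and saline were 36.4 points at the internal start of Il1rn, 29.03 at the upstream region of Il1b, 40.1 past Il18 and −33.5 at the later region of Nlrp3, and among those of fewer cells (6 and 7) they were 39.0, 25.4, 46.8 and −29.3 points. The region 1776 bp upstream of Il1a differed by 22.0 points in the first class and 1.42 points in the second, and the Gsdmd region inside Mroh6 by 4.87 and 29.7 points.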

How the data were processed

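The data were 23 ATAC-seq peak lists, 1 per library, made by the authors with cutadapt, Bowtie2, Picard, SAMtools and MACS2 on mm10/GRCm38, per the submitters' processing notes, which give no versions. Each deposited list holds for a peak an integer score, a fold over background, a −log10 p, a −log10 q and the summit's offset in bp (another unit), as the authors' caller wrote them. No read totals accompany the lists, so depth is unknown.

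From these lists, the best 33949 peaks of each library by −log10 p were kept, and 501 bp windows on their summits gave the regions. A peak counted when it covered at least 50% of a region or lay in it with at least 50% of its length. Presence was tested by an exact test stratified by prenatal group or treatment, over regions whose attainable p was at most 0.01. Percentiles, and log2 of the number of peaks plus 1 within 20 kb of 16099 genes, were fitted with limma 3.58.1 (R 4.3.3) on 4 group means, with Python 3.11.15 and scipy 1.17.1 for the rest. The scripts were tested on simulated data.

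All 9 genes are named, each with its highest region and every region past a threshold. Pathway genes are named where a region passed the presence test, the 10 largest differences first, with 1 tie. The members and lists were chosen with earlier results of these data known. No genome was used, so motifs were searched only in the RefSeq promoter windows. The highest share of identical peaks between 2 libraries was 0.309%, so none was treated as a copy. The result of 1 gene on the list of microglia markers is not reported here.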

Additional observations from a re-analysis of the deposited data

Results flagged for a closer look

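Of 128 groups of 5 to 7 libraries checked, 16 had a library far from the others. A lone peak among zeros, or a lone count among equal ones, is always flagged. The usual rate of about 1 in 20 groups by chance therefore does not apply here, and the 16 cannot be set against it. Several were the highest value in a saline group that otherwise had few peaks or none. These were Il1rn at the internal start, where CON_SAL library 4 had a percentile of 11.4, Nlrp3 11718 bp past a start, where MIA_SAL library 5 had 12.98, and Gsdmd inside Mroh6, where CON_SAL library 4 had 17.8. The same was seen 5092 bp upstream of Il1a, where MIA_SAL library 6 had 28.6, inside Pycard, where MIA_SAL library 6 had 1.96, and at the start of Casp1, where MIA_SAL library 2 had 11.2. After LPS, CON_LPS library 5 had 37.0 at the region 1776 bp upstream of Il1a, with the next at 15.8. At the start of Casp4, MIA_LPS library 4 was lowest at 31.9, and at the start of Il18, CON_SAL library 3 had 0.

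In peaks per locus, CON_LPS library 5 had 7 at Il1b and MIA_SAL library 5 had 2 at Il1rn. At Casp4, MIA_LPS library 3 had 4, and CON_LPS library 5, MIA_SAL library 4 and CON_SAL library 3 had 3 each. At Pycard, CON_LPS library 1 had 4.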

How the results depend on the processing

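No call reversed. The region past Il18, the internal-start region of Il1rn and the upstream region of Il1b kept their calls over both prenatal groups under every alternative that could be fitted and every left-out library. The presence test called 7 regions, but 4 with a −log10 q of at least 5, 2 with lists of 16974 peaks, 4 with no filter on the attainable p and 3 with the replicate block. The percentile fit called 14 regions over all offspring, but 8 with a −log10 q of at least 5, 4 with absent peaks left out, 4 with lists of 16974 peaks and 7 with lists ordered by fold. Without the libraries of identity numbers 1 to 3, percentile calls over all offspring were lost at Nlrp3, Gsdmd, Il1a, Pycard and Casp4. In CON offspring it called 7, but 4 with all deposited peaks, 1 with a −log10 q of at least 5, 2 with absent peaks left out, 1 with lists of 16974 peaks, 3 with lists ordered by fold and 4 with the replicate block. In MIA offspring it called 6, but 2 with absent peaks left out and 2 with lists of 16974 peaks. Between MIA_LPS and CON_LPS libraries it called 0, but 2 with a −log10 q of at least 5. Peaks per locus gave 3 called loci, but 0 with lists of 16974 peaks and 1 with lists ordered by fold. The cause was not tested.

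Leaving out 1 library gave 6 to 8 presence calls, 10 to 15 percentile calls over all offspring, 4 to 8 in CON and 5 to 8 in MIA offspring, 3 to 3 loci, and 0 to 0 for every comparison of MIA with CON. The 4 came without CON_LPS library 7 or without CON_SAL library 1, 2 or 5. Of 20 pairs of libraries with the same replicate number, 6 had correlated deviations above 0.1 and 7 correlated best with their own number. Replicate 3 correlated best with its own number in every comparison, at 0.123 to 0.185. Its libraries carried identity number 2 in both CON groups and 3 in both MIA groups. These values do not settle whether replicate numbers pair the libraries.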
